A study of Homo sapiens with 8 samples.

Results

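A set of 41 genes of DNA replication and mitosis was followed through input RNA, ribosome-protected fragments (RPF) and translation efficiency (TE, RPF relative to input) in METTL5-WT and METTL5-KO libraries, to ask whether the proliferation state differed between the genotypes. The genes were found by symbol and comprised 20 S phase genes, 19 G2/M genes and 2 regulators of G1, CCND1 and CDKN1A. All 41 were among the 14054 genes tested in input, and 40 were among the 11244 genes of the TE table, which did not list NUSAP1. All 8 libraries were labelled HepG2, an established line from a human liver tumour, and all plates had received cycloheximide at 100 µg/ml for 7 min, which stalls ribosomes on the message. METTL5-WT cells kept the gene for METTL5, the methyltransferase of 18S ribosomal RNA, and in METTL5-KO cells a pair of its exons had been targeted for excision with CRISPR/Cas9. Each genotype gave 2 lysates, and each lysate was split into 1 input library and 1 RPF library. By the methods, HepG2 lines of both genotypes were expanded from isolated clones, and no source used here says which clone a replicate came from. Genotype and clone therefore cannot be told apart.

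A dividing cell copies its DNA in S phase and separates the copies in mitosis. Helicase subunits (MCM2 to MCM7), their loaders CDC6 and CDT1, the sliding clamp PCNA, the clamp loader, the DNA polymerases and the enzymes that make deoxynucleotides serve the first task, and their genes are classical targets of E2F factors. Cyclin B with CDK1, the Aurora and Polo kinases, spindle motors and checkpoint proteins serve the second, and their genes are switched on later, in G2, largely through CCAAT boxes and a short element called the CHR. Transcript levels of both groups, and of MKI67 in particular, are widely read as markers of proliferation.

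The input libraries held 10710226 to 15307256 counts. Among RPF libraries, METTL5-WT had 3970779 and 4592443 reads and METTL5-KO had 8626705 and 9255921, so low genes were least precise in the METTL5-WT RPF libraries. METTL5 itself checked the labels: input held 490 and 542 METTL5 counts for METTL5-WT against 208 and 151 for METTL5-KO, and RPF held 158 and 226 reads against 41 and 21. The label HepG2 was set beside 6 defining liver markers (ALB, AFP, APOA1, TF, SERPINA1 and HNF4A), and the data went against it. These markers summed to 2, 2, 6 and 12 input counts in METTL5-WT 1 and 2 and METTL5-KO 1 and 2, SERPINA1 had 0 counts in all 4 input libraries, and the TE table listed none of the 6. Of 6 markers of other cell types, COL1A1 had 429 to 937 counts and the other 5 had 3 or fewer in every library. The libraries are therefore called here by genotype only. In bulk RNA, fewer dividing cells and less of a transcript per dividing cell cannot be told apart.

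In input RNA, G2/M transcripts were lower in METTL5-KO. With edgeR, 10 of 19 G2/M genes fell (adjusted p under 0.05) and 0 rose, where 10.6% of all genes tested fell and 11.8% rose. At an unadjusted p under 0.05 the count was 12 lower and 0 higher, and DESeq2 gave 10 lower and 0 higher. The median log2 change of the G2/M genes was -0.32, against -0.0043 over all genes tested, and 17 of 19 lay below 0. S phase genes were mixed. Of 20, 3 fell (PCNA, GINS2 and CCNE1) and 2 rose (POLD1 and POLE), with a median log2 change of -0.15 and 15 below 0. The counts depended on single libraries. Fewer genes of both groups were called when 1 METTL5-WT library was left out and more without METTL5-KO 1, as over all genes. The G2/M median was -0.33 without METTL5-WT 1, -0.35 without METTL5-WT 2, -0.41 without METTL5-KO 1 and -0.22 without METTL5-KO 2. The S phase median was -0.15, -0.15, -0.19 and -0.14 in the same order.

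**Figure D1:**
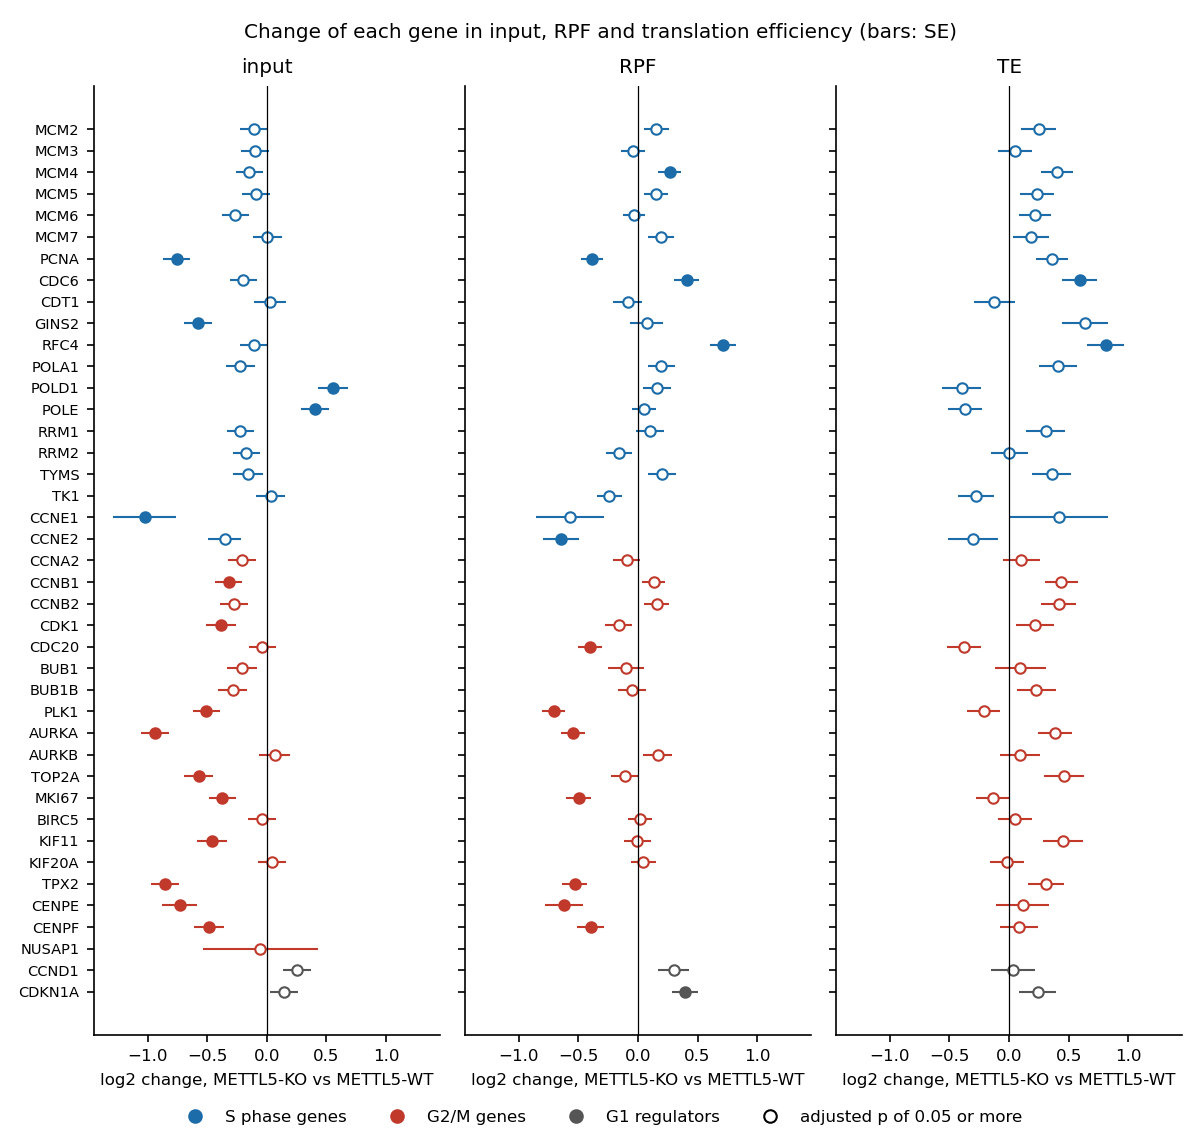
Log2 change of each gene between METTL5-KO and METTL5-WT (x axis) in input, RPF and TE. Points are fitted changes with standard error bars, n = 2 libraries per genotype and library type; filled points passed an adjusted p of 0.05. In input 10 G2/M genes are filled and all lie to the left of 0; in TE only CDC6 and RFC4 are filled, both to the right.

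Among the mitotic kinases, AURKA, the centrosome kinase that builds the spindle poles, had the largest fall of a G2/M gene. Its input value (reads scaled by the size factor of the library) was 2241 and 2384 in METTL5-WT against 1172 and 1261 in METTL5-KO. The METTL5-KO values lay far below both METTL5-WT values, and AURKA fell by 0.94 ± 0.12 on the log2 scale (SE, edgeR adjusted p = 1.77e-06). TPX2, which activates AURKA on spindle microtubules, had input values of 2811 and 2733 in METTL5-WT against 1614 and 1484 in METTL5-KO. TPX2 fell by 0.85 ± 0.11 (SE, edgeR adjusted p = 6.50e-06), again with no overlap. PLK1, the Polo kinase of mitotic entry, read 1856 and 1837 against 1241 and 1382 and fell by 0.51 ± 0.12 (SE, edgeR adjusted p = 0.00238). AURKB and BIRC5, partners in the chromosomal passenger complex, were not called, with log2 changes of 0.07 and -0.04.

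Transcripts of several spindle proteins and of both chromatin proteins of dividing cells also fell in input. CENPE, a kinetochore motor, had values of 714 and 654 in METTL5-WT against 495 and 339 in METTL5-KO and fell by 0.73 ± 0.15 (SE, edgeR adjusted p = 0.000677). CENPF, a kinetochore protein, read 4462 and 4028 against 3444 and 2684 and fell by 0.48 ± 0.13 (SE, edgeR adjusted p = 0.00684). KIF11, the motor that pushes the spindle poles apart, read 2372 and 2128 against 1869 and 1434 and fell by 0.46 ± 0.13 (SE, edgeR adjusted p = 0.0108). In these 3 genes METTL5-KO 2 was the lowest library and the genotypes did not overlap. TOP2A, the topoisomerase that untangles chromosomes, had values of 5362 and 4963 in METTL5-WT against 3914 and 3099 in METTL5-KO and fell by 0.57 ± 0.12 (SE, edgeR adjusted p = 0.00151). MKI67, which encodes the Ki-67 antigen, read 3701 and 3598 against 3047 and 2645 and fell by 0.37 ± 0.12 (SE, edgeR adjusted p = 0.0226). The 2 genotypes were separate for both genes, and METTL5-KO 2 was again the lowest. KIF20A, a motor of cytokinesis, was not called (log2 change 0.05). NUSAP1, a spindle protein, had 13 and 29 counts in METTL5-WT against 24 and 28 in METTL5-KO, a log2 change of -0.05 ± 0.48 (SE).

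The kinase at the centre of mitotic entry was lower by a smaller step. CDK1 had input values of 3058 and 2863 in METTL5-WT against 2569 and 2014 in METTL5-KO and fell by 0.38 ± 0.12 (SE, edgeR adjusted p = 0.0280). Its partner CCNB1 (cyclin B1) read 3344 and 3206 against 2750 and 2546 and fell by 0.32 ± 0.11 (SE, edgeR adjusted p = 0.0445), a call that was lost without the filter on low counts. CCNA2 and CCNB2, the other mitotic cyclins, had log2 changes of -0.21 and -0.27 and were not called. The checkpoint kinases BUB1 and BUB1B (-0.21 and -0.29) and CDC20, the activator of the anaphase-promoting complex (-0.04), were not called either. Of the 10 calls, only AURKA, TPX2 and CENPE passed in every alternative fit. CCNB1, CDK1, PLK1, MKI67, KIF11 and CENPF were not called when either METTL5-WT library was left out, nor TOP2A without METTL5-WT 1.

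**Figure D2:**
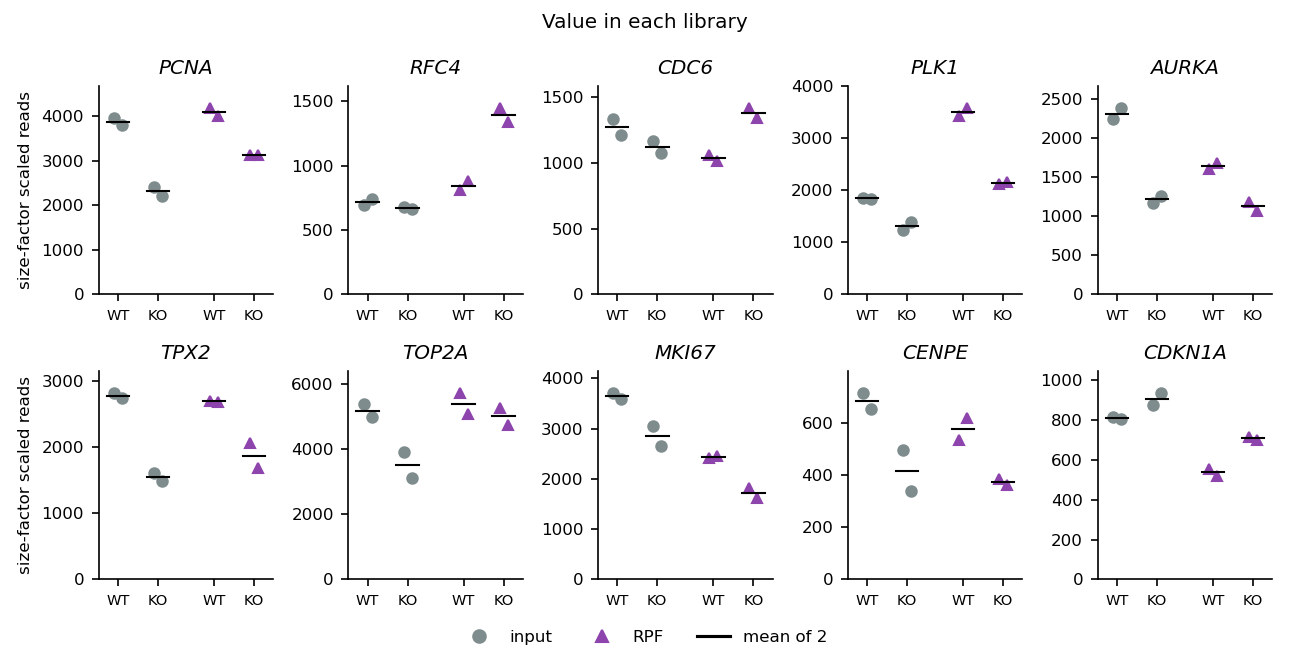
Values of 10 genes in each library (y axis, reads scaled by the size factor of the library, starting at 0), for input (circles) and RPF (triangles), with 2 libraries per genotype and a line at their mean. Both METTL5-KO input values of AURKA, TPX2, PCNA, PLK1, TOP2A, MKI67 and CENPE lie below both METTL5-WT values, while the RPF values of RFC4, CDC6 and CDKN1A lie above them.

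Among S phase genes in input, the clamp fell and 2 of the 3 DNA polymerase genes rose. PCNA, the sliding clamp, had values of 3954 and 3786 in METTL5-WT against 2414 and 2214 in METTL5-KO and fell by 0.76 ± 0.11 on the log2 scale (SE, edgeR adjusted p = 3.15e-05). This call passed in every alternative fit. POLD1, the catalytic subunit of polymerase delta, had values of 430 and 459 in METTL5-WT against 594 and 720 in METTL5-KO and rose by 0.55 ± 0.13 (SE, edgeR adjusted p = 0.00279). POLE, the catalytic subunit of polymerase epsilon, read 876 and 887 against 1147 and 1208 and rose by 0.41 ± 0.11 (SE, edgeR adjusted p = 0.0125). Both polymerase calls were lost when either METTL5-WT library was left out. POLA1 of the primase complex (-0.22) and RFC4 of the clamp loader (-0.11) were not called.

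Of the licensing and helicase genes, 1 of 9 was called, and it fell. Of all genes tested in input, 10.6% fell and 11.8% rose. GINS2, a subunit of the replicative helicase, had input values of 739 and 728 in METTL5-WT against 491 and 503 in METTL5-KO and fell by 0.57 ± 0.12 (SE, edgeR adjusted p = 0.000974), a call lost when either METTL5-WT library was left out. The other 8 licensing and helicase genes (MCM2 to MCM7, CDC6 and CDT1) were not called, with log2 changes from -0.27 for MCM6 to 0.03 for CDT1. The genes of nucleotide supply, RRM1, RRM2, TYMS and TK1, had log2 changes of -0.22, -0.17, -0.16 and 0.03, and none was called. The E cyclins drive entry into S phase. CCNE1 had 127 and 90 input counts in METTL5-WT against 55 and 82 in METTL5-KO and fell by 1.02 ± 0.26 (SE, edgeR adjusted p = 0.00625), a call lost without METTL5-WT 1. CCNE2 had 620 and 564 counts against 598 and 579, from deeper METTL5-KO libraries, and a log2 change of -0.35 ± 0.14 (SE, edgeR adjusted p = 0.0679).

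Neither G1 regulator was called in input. CCND1 (cyclin D1) had input values of 639 and 626 in METTL5-WT against 765 and 757 in METTL5-KO, a log2 change of 0.25 ± 0.12 (SE, edgeR adjusted p = 0.126). CDKN1A, the CDK inhibitor p21, read 818 and 806 against 875 and 935, a change of 0.14 ± 0.12 (SE, edgeR adjusted p = 0.409). For both genes the METTL5-KO values lay above the METTL5-WT values without overlap, but so did those of 31.9% of all genes of the TE table.

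The values that gave the calls were also set out library by library, as a description and not as separate evidence. In input, both METTL5-KO values lay below both METTL5-WT values for 13 of 18 G2/M genes (72.2%), 11 of 20 S phase genes (55%) and 31.4% of all 11244 genes. The mean log2 value of the G2/M genes above the median gene of its library was 2.74 and 2.65 in METTL5-WT input against 2.39 and 2.29 in METTL5-KO input. For S phase genes it was 2.20 and 2.18 against 2.00 and 2.05. In RPF, 8 of 18 G2/M genes (44.4%) and 5 of 20 S phase genes (25%) lay lower in both METTL5-KO libraries, where 29% of all genes did. The RPF means were 3.15 and 3.20 against 3.02 and 2.95 for G2/M genes and 2.99 and 2.98 against 3.07 and 2.98 for S phase genes, which overlapped only in the S phase group.

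**Figure D3:**
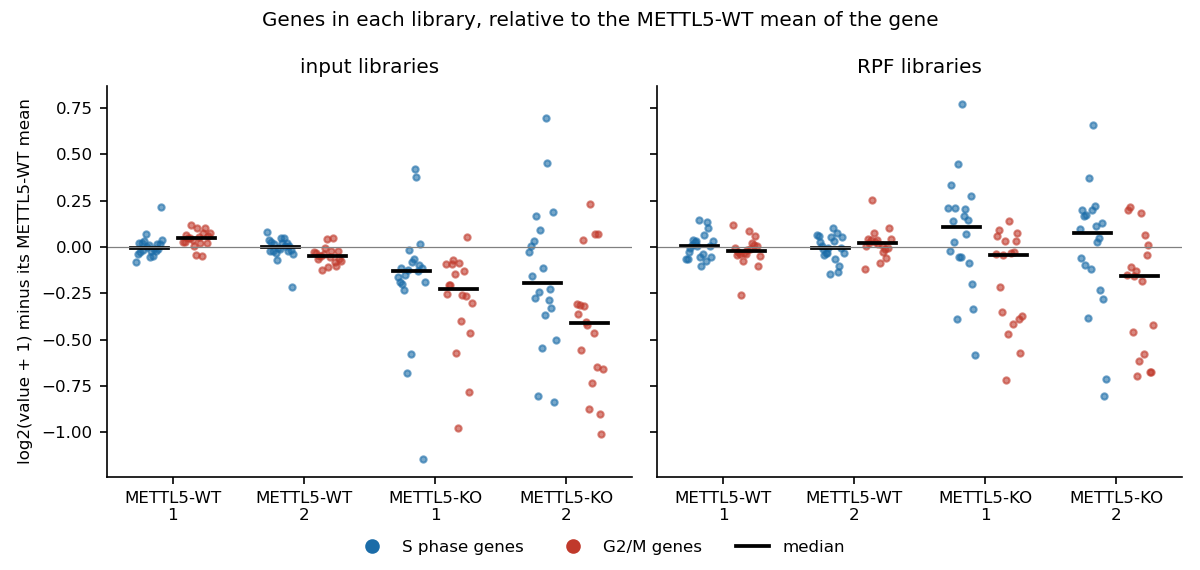
Each gene in each library as log2(value + 1) minus its METTL5-WT mean (y axis), for 20 S phase and 18 G2/M genes, with input at the left and RPF at the right. Points are genes and lines are medians. The G2/M medians of both METTL5-KO libraries lie under 0 in input and closer to 0 in RPF, and the S phase medians lie under 0 in input and above 0 in RPF.

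Several of the genes with the largest input changes lay in stretches of chromosome where most neighbours had changed the same way. For each gene, the median input log2 change of up to 40 neighbouring genes (20 tested genes on either side) was taken. PCNA (chr20:5114953-5126626, hg38) had a neighbour median of -0.55, and 22 of its 40 neighbours were called lower. TPX2 (chr20:31739271-31801805) had -0.50 and 20 of 40, and AURKA (chr20:56369389-56392337) had -0.38 and 16 of 40. These 3 genes are spread over chromosome 20. On chromosome 16, GINS2 (chr16:85676198-85690073) had a neighbour median of -0.46 with 18 of 40 called lower, and PLK1 (chr16:23677656-23690367) had -0.33 with 15 of 40. The rises of POLE and POLD1 also lay among raised neighbours, with medians of 0.47 and 0.27. Whether these stretches account for part of the change of the genes was not tested.

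The other called genes lay among neighbours that were lower by less or near 0. CCNB1 had a neighbour median of -0.28, with 34 of 40 neighbours below 0 and 6 called lower, close to its own change of -0.32. The neighbour medians were -0.17 for CDK1, -0.17 for KIF11 and -0.16 for CENPF, with 6, 10 and 5 of 40 neighbours called lower. They were -0.04 for TOP2A, 0.07 for MKI67, -0.04 for CENPE and -0.08 for CCNE1, each within 0.1 of 0, while these 4 genes had log2 changes of -0.57, -0.37, -0.73 and -1.02. Of all 19 G2/M genes, 18 lay below the median of their neighbours, by a median of 0.23 on the log2 scale. The S phase genes did so in 18 of 20, by a median of 0.17. The same measure was not computed over all genes, so these counts have no baseline beside them. RRM1 and CDT1 departed from their surroundings in opposite ways: RRM1 read -0.22 beside neighbours at 0.56, and CDT1 read 0.03 beside neighbours at -0.39.

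**Figure D4:**
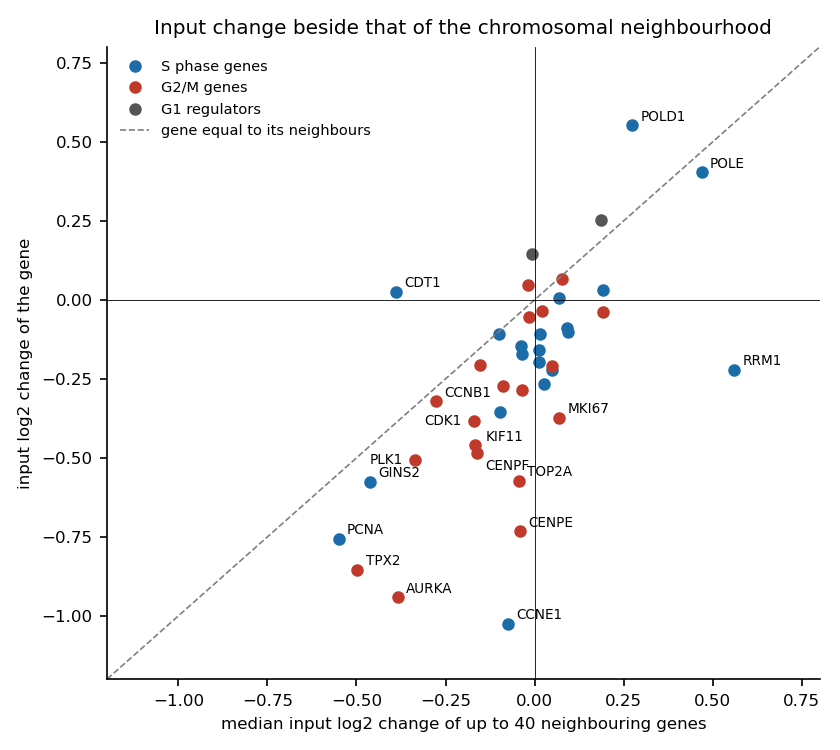
Input log2 change of each gene (y axis) against the median input log2 change of up to 40 neighbouring genes on its chromosome (x axis), n = 2 libraries per genotype; the dashed line marks equality. PCNA, TPX2, AURKA, GINS2 and PLK1 lie at the lower left, and TOP2A, CENPE, MKI67 and CCNE1 lie below 0 at neighbour medians near 0. Of 41 genes, 36 lie under the line, and the share of all genes under it was not computed.

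Input changes also went with the GC content of the coding sequence. Across genes, the Spearman correlation of input change with coding GC was 0.75 for the 20 S phase genes, 0.56 for the 19 G2/M genes and 0.29 for 11606 genes overall; genes share libraries and are not replicates, so no p is given. G2/M genes had a lower median GC content (44.6%) than S phase genes (50.9%). The METTL5-KO input replicates differed from each other along the same axis, with a Spearman correlation of 0.572 between METTL5-KO 2 minus METTL5-KO 1 and GC content over 11224 genes, against 0.069 in METTL5-WT. With the trend of each library on the GC content of the whole transcript removed, edgeR called 11 of 19 G2/M genes lower and 0 higher. It called 4 S phase genes lower and 2 higher. Of all genes tested, 12.8% fell and 14.1% rose. The G2/M median was then -0.22 and the S phase median -0.14, so the gap between the groups narrowed from -0.17 to -0.08.

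**Figure D5:**
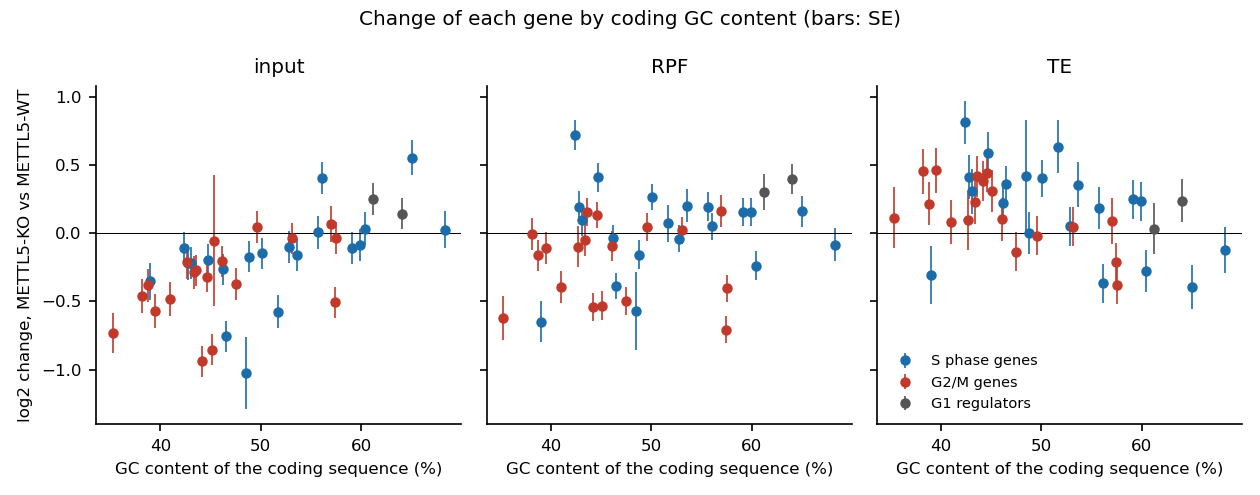
Log2 change between METTL5-KO and METTL5-WT (y axis, with standard error bars) of each gene against the GC content of its coding sequence in percent (x axis) for input, RPF and TE. Input changes tend to be higher at higher GC content, from -0.73 for CENPE at 35.3% to 0.55 for POLD1 at 65.0%, though CDT1, with the highest GC content (68.3%), lies at 0.03, and TE changes tend to be lower.

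Ribosome footprints of G2/M genes were also lower in METTL5-KO for some genes and not for others. With limma, 7 of 18 G2/M genes fell in RPF and 0 rose, where 13.1% of genes fell and 16.2% rose; edgeR on the recovered reads gave the same counts, where 13.7% fell and 14% rose. At an unadjusted p under 0.05 the counts were also 7 and 0 by either tool. The median log2 change was -0.10 for G2/M genes and 0.0217 over all genes. Of the 7, 6 had also fallen in input (PLK1, AURKA, MKI67, TPX2, CENPE and CENPF), and the seventh, CDC20, was not called in input. CCNB1, CDK1, TOP2A and KIF11, which fell in input, were not called in RPF, and their RPF log2 changes were 0.13, -0.16, -0.11 and -0.004. The TE test of the difference between the readouts called neither these 4 nor CDC20 (TE log2 change -0.38, limma adjusted p = 0.117) in limma or edgeR. Among alternative TE fits, CCNB1 was called with DESeq2 and CDC20 with quantile normalization. TOP2A was called with the length trend removed or with the lysate as a replicate block. CDK1 and KIF11 were called in no alternative fit. A difference between the readouts is therefore not shown for CDK1 and KIF11, and for the others it depended on the fit.

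PLK1 had the largest footprint fall. Its RPF value was 3431 and 3572 in METTL5-WT against 2128 and 2158 in METTL5-KO, a fall of 0.71 ± 0.10 on the log2(value + 1) scale (SE, limma adjusted p = 4.86e-05, edgeR adjusted p = 4.55e-06). CENPE read 535 and 618 against 386 and 360 and fell by 0.62 ± 0.16 (SE, limma adjusted p = 0.00720), and AURKA read 1604 and 1689 against 1187 and 1074 and fell by 0.54 ± 0.10 (SE, limma adjusted p = 0.000808). In all 3 genes the genotypes were separate. TPX2 read 2696 and 2681 in METTL5-WT against 2054 and 1686 in METTL5-KO and fell by 0.53 ± 0.11 (SE, limma adjusted p = 0.00140). MKI67 read 2407 and 2447 against 1817 and 1625 and fell by 0.50 ± 0.10 (SE, limma adjusted p = 0.00163). CENPF read 2110 and 2250 against 1682 and 1630 and fell by 0.40 ± 0.11 (SE, limma adjusted p = 0.0152). The calls of MKI67, CENPE and CENPF were lost when a trend on coding length was removed, and those of CENPE, CENPF and CDC20 without METTL5-WT 2, which left 4 G2/M calls. CDC20, whose input values of 1409 and 1315 against 1280 and 1400 overlapped, had RPF values of 6300 and 6652 in METTL5-WT against 5081 and 4720 in METTL5-KO. It fell by 0.40 ± 0.10 in RPF (SE, limma adjusted p = 0.00539).

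In RPF, S phase genes were called at shares near those of all genes. With limma, 3 of 20 rose (RFC4, CDC6 and MCM4) and 2 fell (PCNA and CCNE2), where 16.2% of all genes rose and 13.1% fell, with a median log2 change of 0.09; edgeR called 2 and 2, without MCM4 (edgeR adjusted p = 0.0858). RFC4, a subunit of the clamp loader, had RPF values of 812 and 876 in METTL5-WT against 1444 and 1334 in METTL5-KO. It rose by 0.72 ± 0.11 (SE, limma adjusted p = 0.000132, edgeR adjusted p = 5.75e-05), and the genotypes were far apart. CDC6, which loads the helicase, read 1057 and 1013 against 1413 and 1338 and rose by 0.41 ± 0.10 (SE, limma adjusted p = 0.00716). PCNA read 4169 and 4003 against 3126 and 3134 and fell by 0.38 ± 0.09 (SE, limma adjusted p = 0.00584). CCNE2 read 418 and 399 against 273 and 249 and fell by 0.65 ± 0.15 (SE, limma adjusted p = 0.00384). CCNE1, with 50 and 64 RPF reads in METTL5-WT against 81 and 63 in METTL5-KO, the latter from deeper libraries, had a log2 change of -0.57 ± 0.29 and was not called. Only RFC4 and CCNE2 were called whichever lysate was left out, where 3 to 5 S phase genes passed. POLD1, POLE and GINS2, called in input, had RPF changes of 0.16, 0.05 and 0.07 and were not called.

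In RPF, both METTL5-KO values lay above both METTL5-WT values for the 2 G1 regulators, and for 32.4% of all genes of the TE table. Only CDKN1A was called, where 16.2% of genes rose. CDKN1A had RPF values of 556 and 521 in METTL5-WT against 716 and 700 in METTL5-KO and rose by 0.39 ± 0.11 (SE, limma adjusted p = 0.0129, edgeR adjusted p = 0.0296). The call was lost without METTL5-KO 1, without METTL5-WT 2 and with the length trend removed. CCND1 read 325 and 271 against 373 and 359, a change of 0.30 ± 0.13 (SE, limma adjusted p = 0.0959).

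In TE, 2 S phase genes were called, and 0 G2/M genes. With limma, 2 of 20 S phase genes rose and 0 fell, where 2.7% of genes rose and 2.08% fell; edgeR on the recovered reads also called 2 and 0, where 3.12% rose. Of 18 G2/M genes, 0 were called in either direction by limma or edgeR, and at an unadjusted p under 0.05 the counts were 5 higher and 1 lower with both tools. With DESeq2, 4 S phase and 1 G2/M genes were called, where 855 were called over all genes, against 538 with limma. The median log2 TE change was 0.24 for S phase genes and 0.11 for G2/M genes, against 0.0212 over all genes. RFC4 had a log2 RPF to input ratio of 0.23 and 0.24 in the METTL5-WT lysates and 1.09 and 1.01 in the METTL5-KO lysates. Its TE rose by 0.81 ± 0.15 (SE, limma adjusted p = 0.00923, edgeR adjusted p = 0.00404), with input at 691 and 742 against 678 and 663. CDC6 had ratios of -0.33 and -0.26 against 0.28 and 0.32 and rose by 0.59 ± 0.15 (SE, limma adjusted p = 0.0331, edgeR adjusted p = 0.0281).

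The TE calls were sensitive to GC content and to single lysates. With the GC trend removed, CDC6 was not called (0.37, limma adjusted p = 0.119), RFC4 was called at 0.55 (limma adjusted p = 0.0478) and MCM5 was called at 0.45 (limma adjusted p = 0.0439), as was CDKN1A at 0.58 (limma adjusted p = 0.0364). Leaving out 1 lysate gave 0 S phase calls for 3 of the 4 lysates and 1 without METTL5-WT 2. Across genes, the Spearman correlation of TE change with coding GC was -0.52 in the S phase group, -0.67 in the G2/M group and -0.47 over 11220 genes. With the lysate as a replicate block, limma called 3 S phase genes and 1 G2/M gene, adding GINS2 (0.63, limma adjusted p = 0.0426) and TOP2A (0.46, limma adjusted p = 0.0492), where 4.17% of genes rose. Both added calls were lost with the same block and the GC trend removed (GINS2 at 0.58, limma adjusted p = 0.0633, and TOP2A at 0.17, limma adjusted p = 0.509). That fit called 3 S phase genes and 0 G2/M genes, where 436 were called over all genes. They were RFC4 (0.55, limma adjusted p = 0.0343), MCM5 (0.45, limma adjusted p = 0.0400) and MCM2 (0.43, limma adjusted p = 0.0439). CDKN1A was also called and CDC6 was not.

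Before any effect of genotype, the genes differed among themselves in footprints per length relative to input per length. The scale was RPF per coding length over input per exon length in METTL5-WT. On it, the 18 G2/M genes had a median at percentile 29.6 of the TE table, and the 20 S phase genes at 50.7. Coding length was that of the canonical transcript, while exon length covered all annotated exons of the gene. Genes with long exons outside the canonical transcript therefore read too high on this scale and too low in TPM. Which genes this affects was not tested. CENPF, MKI67 and CENPE, all very long messages, were the lowest, at percentiles 2.6, 5.2 and 7.4, and RRM2, the small subunit of ribonucleotide reductase, and TK1, thymidine kinase, were the highest, at 92.5 and 89.6. By level per length in input, RRM1, the large subunit of ribonucleotide reductase, ranked 62 of 14054 genes, with 1520 and 1577 TPM (counts per exon length, scaled to a common total per library) in METTL5-WT against 1281 and 1021 in METTL5-KO. PCNA ranked 110, with 1063 and 1026 TPM against 590.5 and 481. At the other end, NUSAP1 ranked 12620, with 0.926 and 2.17 TPM in METTL5-WT against 1.38 and 1.19 in METTL5-KO, and CCNE1 ranked 8870, with 13.3 and 9.88 TPM against 4.62 and 5.10.

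The other replication genes that were called lay mostly lower in input and higher in RPF and TE. Of 44 other replication genes, 8 fell and 0 rose in input by edgeR (9 lower and 1 higher at an unadjusted p under 0.05; DESeq2 gave 7 and 0), where 10.6% of all genes fell and 11.8% rose. In RPF 12 of 43 rose and 2 fell by limma, where 16.2% of all genes rose and 13.1% fell, and in TE 9 rose and 0 fell, where 2.7% rose and 2.08% fell. edgeR gave 12 and 2 in RPF and 11 and 0 in TE. The median log2 changes were -0.14, 0.22 and 0.40. The input count of 8 lower was 3 without either METTL5-WT library and 16 (beside 3 higher) without METTL5-KO 1. The TE count of 9 higher was 5 with the GC trend removed, 0 without METTL5-KO 2 and 4 to 6 without 1 of the other lysates. The replication genes with the largest calls were ORC6 of the origin recognition complex (-0.79) and GINS3 of the helicase (-0.70) in input, POLA2 (1.92) and POLE3 (1.08) in RPF, and TIPIN (1.27) and RPA3 (1.07) in TE. POLA2 rested on few footprints, with scaled values of 9.50 and 2.01 in METTL5-WT against 21.7 and 19.0 in METTL5-KO. POLE3, a small subunit of polymerase epsilon, had RPF values of 865 and 979 against 1993 and 1887, with input values of 2259 and 2397 against 2420 and 2380.

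Of 61 other mitosis genes, 19 fell and 2 rose in input, where 10.6% of all genes fell and 11.8% rose. The input count of 19 lower was 4 without either METTL5-WT library and 30 (beside 8 higher) without METTL5-KO 1. In RPF 9 of 60 fell and 9 rose, near the 13.1% and 16.2% of all genes, and edgeR gave 11 and 7. In TE 5 rose and 2 fell, where 2.7% and 2.08% of all genes did, edgeR gave 6 and 2, and 0 were called without METTL5-KO 2 or without METTL5-WT 1. The largest calls were HMMR, a spindle protein (-0.98), and SKA3 of the kinetochore (-0.90) in input, the condensin subunit NCAPD2 (-0.86) and KIF22 (-0.71) in RPF, and TROAP (-0.77) and PBK (0.75) in TE. With the GC trend removed, 19 other mitosis genes fell and 1 rose in input, and 0 were called in TE.

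Regulators of the cell cycle were called in both directions. Of 31 such genes tested, 8 fell and 6 rose in input, where 10.6% of all genes fell and 11.8% rose. In RPF 7 fell and 5 rose, where 13.1% and 16.2% of all genes did. In TE 2 rose and 2 fell, where 2.7% and 2.08% of all genes did. With edgeR, 7 fell and 3 rose in RPF, and 2 were called each way in TE. Without either METTL5-WT library the input counts were 3 lower and 0 higher, without METTL5-WT 1 the RPF counts were 4 and 2, and without METTL5-KO 2 no regulator was called in TE. In input the largest calls were the pocket protein RBL2 (-0.92) and FZR1, an activator of the anaphase-promoting complex (-0.71). MYBL2, a transcription factor of G2/M genes, had RPF values of 2528 and 2493 in METTL5-WT against 1032 and 1066 in METTL5-KO and fell in RPF by 1.26 ± 0.10 (SE, limma adjusted p = 1.56e-07) and in TE by 0.84 ± 0.15 (SE, limma adjusted p = 0.00569). E2F1, a transcription factor of S phase genes, read 447 and 429 against 171 and 222 in RPF and fell by 1.16 ± 0.18 (SE, limma adjusted p = 0.000131). Both genes lie on chromosome 20, with neighbour medians of -0.49 and -0.41 in input, and the genotypes did not overlap. The inhibitor CDKN1C rose in TE by 0.98. Of 20 tested p53 targets, 1 fell in input and RPF, ZMAT3 (-1.18 and -1.32), where 10.6% and 13.1% of all genes fell. For these targets, 0 were called in TE by limma or edgeR, with 0 at an unadjusted p under 0.05.

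Promoters were searched for the elements through which the 2 groups are commonly described as regulated, which the choice of genes had not used. RefSeq promoters (GRCh38.p14, 250 bases before to 50 after the start) were held for 34 of the 41 genes, and a gene counted where any of its promoters matched on either strand. The CHR was searched as TTTGAA or TTCGAA, the CCAAT box as CCAAT, and the E2F site as TTTGGCGC, TTTCCCGC, TTTCGCGC or TTTGCCGC; some matches of the last overlap. A CHR was found for 11 of 16 G2/M genes (68.8%), 2 of 17 S phase genes (11.8%) and 19.5% of all 27305 genes with a promoter. An E2F site was found for 11 of 17 S phase genes (64.7%), 2 of 16 G2/M genes (12.5%) and 3.99% of all genes. CCAAT was found for 14 of 16 G2/M genes (87.5%) and 11 of 17 S phase genes (64.7%), against 39.7% of all genes. Within the G2/M group, a CHR was found for 6 of 8 genes that fell in input and 5 of 8 that were not called. The following windows of up to 30 bases around a CHR, in capitals, are given 5′ to 3′ on the strand of the gene for 5 genes that fell in input and 2 that were not called (CCNB2 and BUB1B), to show the element in both kinds.
CDK1, chr10:60778397-60778426, plus strand: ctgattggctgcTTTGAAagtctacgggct
PLK1, chr16:23678848-23678877, plus strand: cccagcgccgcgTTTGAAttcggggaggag
KIF11, chr10:92593090-92593119, plus strand: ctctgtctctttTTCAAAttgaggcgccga
MKI67, chr10:128126435-128126464, minus strand: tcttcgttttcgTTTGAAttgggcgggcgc
TOP2A, chr17:40418030-40418059, minus strand: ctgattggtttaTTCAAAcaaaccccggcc
CCNB2, chr15:59105105-59105134, plus strand: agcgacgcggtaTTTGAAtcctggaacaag
BUB1B, chr15:40161034-40161063, plus strand: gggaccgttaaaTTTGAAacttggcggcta

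For KIF11 and TOP2A the match shown was on the opposite strand. CDK1, MKI67 and TOP2A had other CHR matches that are not shown. Of these, a CDK1 match ended 8 bases before the start. The E2F matches of 4 S phase genes, in capitals, are given in the same way: PCNA and GINS2 fell in input, POLE rose and CDT1 was not called. All 4 were on the opposite strand, so the capitals are the reverse complement of the letters searched.
PCNA, chr20:5126663-5126692, minus strand: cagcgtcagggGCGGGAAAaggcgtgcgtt
GINS2, chr16:85688967-85688996, minus strand: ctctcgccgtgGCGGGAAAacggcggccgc
POLE, chr12:132687343-132687372, minus strand: ctgggtgggagcGCGCCAAAtttctcccct
CDT1, chr16:88803743-88803772, plus strand: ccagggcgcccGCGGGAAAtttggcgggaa

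A match of letters does not show that a factor is bound, and the promoters that held an element included genes that fell, rose or were not called.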

How the data were processed

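Input RNA and RPF were measured in 2 METTL5-WT and 2 METTL5-KO lysates. The deposited counts per gene of the input libraries came, per the labels, from STAR 2.7.3a alignments to hg38 and featureCounts 1.6.0, and the header of the count table names another featureCounts version. Of this table, 60674 genes were read. The authors named the values of the TE table RPKM, but each deposited signal value was a whole number of reads (tolerance 0.001, 100% of values) times 1 constant per library, that is, reads divided by a size factor. The fit on a log scale that had been planned for RPKM was kept, and counts by edgeR on the recovered reads were set beside it. The authors' own columns of log2 fold changes of TE, p-values and adjusted p-values, deposited in the same table, were not used.

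For input, the quasi-likelihood test of edgeR 4.0.16 was used after filterByExpr and TMM scaling. For RPF and TE, limma 3.58.1 fitted log2(value + 1) by group in all 8 libraries (4 groups, moderated variances with a trend), over the 11240 genes whose mean reached 1 in input and in RPF, and the TE change was the difference between the RPF change and the input change. Changes on that scale are understated for low genes. Adjusted p-values are Benjamini-Hochberg over all genes tested, two-sided, called under 0.05. With 2 against 2, an exact permutation test cannot go below p = 0.333, so none was used. No source says that replicates were separate cultures, so p-values measure the spread between these lysates, which may be technical. The numbers 1 and 2 did not pair the genotypes (correlation of deviations 0.0385 in input and -0.0021 in RPF), while input and RPF of 1 number came from 1 lysate. GC and length trends were removed by local regression (span 0.3). For RPF and TE, GENCODE canonical coding sequences were used, which covered 99.8% of the TE table. For input, the GC content of the whole canonical transcript was used. The gene lists and members were chosen with earlier results of these data known. Named genes were those called in input, RPF or TE, at most 20 by size of change, plus CCND1, CDKN1A, MKI67, PCNA and TOP2A; of other lists, the 2 largest calls per readout were named, and MCM5 and the genes called only under an alternative were named after their values were seen. All 41 genes were accounted for. The scripts were tested on simulated data. R 4.3.3, DESeq2 1.42.0 and Python 3.11.15 were used.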

Additional observations from a re-analysis of the deposited data

How the results depend on the processing

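The number of called G2/M genes in input (10) was 6 at an adjusted p under 0.01 and 3 to 15 when a library was left out; for S phase genes (5) leaving out a library gave 1 to 12. Over all genes the input count (3149) was 1947 with limma on the TE table, 1857 at an adjusted p under 0.01 and 1207 to 5474 when a library was left out. In RPF the G2/M count (7) was 4 with the length trend removed, 4 without the variance trend and 4 to 7 when a lysate was left out; the S phase count (5) was 8, 2 and 3 to 5. The count over all genes (3288) was 1953 at an adjusted p under 0.01 and 1983 to 2773 without a lysate. In TE the S phase count (2) was 4 with DESeq2, 0 without the variance trend, 1 with quantile normalization, 1 at an adjusted p under 0.01 and 0 to 1 without a lysate; the G2/M count (0) was 1 with DESeq2, the length trend removed, quantile normalization or the lysate as a replicate block. Over all genes (538) it was 855 with DESeq2, 283 with the GC trend removed, 896 with edgeR and the lysate as a replicate block (chosen after seeing the data), 1 without the variance trend, 87 at an adjusted p under 0.01 and 4 to 265 without a lysate.

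Median log2 changes without a library were -0.19 to -0.14 (S phase) and -0.41 to -0.22 (G2/M) in input. In RPF they were 0.06 to 0.11 and -0.17 to -0.0412, and for TE 0.13 to 0.27 and 0.0757 to 0.28. The difference between the medians of the groups was -0.22 to -0.0783 in input (-0.0787 with the GC trend removed), -0.24 to -0.15 in RPF and -0.19 to 0.11 in TE, so its sign in TE was not stable. In RPF it was -0.203 with DESeq2, -0.295 with the GC trend removed, -0.205 with edgeR, -0.269 with the length trend removed and -0.210 with quantile normalization. The RPF median of S phase genes was 0.139 with the length trend removed and -0.0354 with quantile normalization, and that of G2/M genes was -0.23, -0.14, -0.13 and -0.25 with the GC trend removed, edgeR, the length trend removed and quantile normalization. The TE median of S phase genes was 0.0788 with quantile normalization, and that of G2/M genes was 0.22 with the length trend removed and -0.0484 with the GC trend removed, with or without the lysate as a replicate block. RRM1 in RPF, at 0.10 and not called, was -0.43 and called with quantile normalization, where the largest values of a library are set to a common scale. With the replicate number as a replicate block, 10 G2/M and 6 S phase genes were called for input; RPF gave 7 and 5 and TE gave 0 and 2; CCNE2 in input was the 1 gene that gained a call and 0 lost one. Where no cause is given, the cause was not tested. Fits that leave a genotype with 1 lysate assume that it varies like the others.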
